A study of Bos taurus with 16 samples.

Results

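Leptin (LEP, ENSBTAG00000014911), fatty acid synthase (FASN, ENSBTAG00000015980), stearoyl-CoA desaturase (SCD, ENSBTAG00000045728) and fatty acid binding protein 4 (FABP4, ENSBTAG00000037526) were grouped as genes that adipocytes are known to express. The genes were selected by identifier, and a gene was kept where its mean CPM (counts scaled to a common library total) was higher in adipose tissue than in muscle. Of the 4 identifiers, LEP, FASN and FABP4 were found and kept, which is 3 of the 44265 features counted, and SCD was not analysed here. The deposited files pair these identifiers with no symbol, and the symbols used are those given with the selection.

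The libraries were made from adipose tissue under the skin and from the gluteus medius muscle of 8 Holstein bull calves. The labels give an age of 21 days, which the paper states for the feeding of the treatments, and 8 L of milk replacer per day. For 10 days, 4 calves had saline added to it (CON, calves 1 to 4) and 4 had 5-hydroxytryptophan (5-HTP, calves 5 to 8), the immediate precursor of serotonin. Tissues were taken the morning after these 10 days, so the calves were older by then. Each tissue of each calf gave 1 library, 16 in all, and the numbers in the labels, the same in both tissues, were taken as the calf. A bulk library of a tissue piece cannot tell fewer adipocytes from less RNA per adipocyte, and this holds for every value given here.

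White adipocytes store fatty acids as triacylglycerol. FASN builds palmitate from acetyl-CoA and malonyl-CoA, and FABP4 is the abundant cytosolic carrier of fatty acids in adipocytes. Leptin is a hormone that adipocytes secrete and that acts in the brain on appetite and energy use. In cattle, adipose tissue is the main site of fatty acid synthesis outside the lactating mammary gland. Complement factor D (CFD, ENSBTAG00000048122), also called adipsin, is a secreted protease made in quantity by adipocytes in rodents.

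The total count per library was between 17289845 and 25221353 in adipose tissue and between 20655954 and 28649548 in muscle. A count of 3, used as the detection floor, corresponded to 0.105 to 0.174 CPM, which covers counting error only. The 10 features with the most counts held 5.39% to 7.53% of the reads in adipose tissue and 19.1% to 24.0% in muscle, which lowers the CPM of the other features in muscle. The feature paired with IGFN1 (ENSBTAG00000046177), used as a muscle marker, had 8, 6, 0 and 8 counts in the adipose libraries of 5-HTP calves 5 to 8 and 0 in all 4 of CON calves, against 911 to 3626 CPM in muscle. The locus paired with TTN (XLOC_017327) had 11, 1, 5 and 0 counts in the same 5-HTP libraries and again 0 in those of CON calves. Counts of both muscle markers were thus seen in adipose libraries of 5-HTP calves alone, and their part in the differences between groups was not tested.

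FABP4 was abundant in adipose tissue and nearly absent from muscle. Its CPM in adipose tissue was 5827, 6445, 4236 and 5800.4 in CON calves 1 to 4 and 4368, 5359, 3480.2 and 6714 in 5-HTP calves 5 to 8. In muscle, it was counted 17, 21, 11 and 2 times in CON calves and 9, 2, 6 and 1 times in 5-HTP calves, which is between 0.0484 and 0.772 CPM. The mean level was 5279 CPM in adipose tissue and 0.332 CPM in muscle, a ratio of 15918. In calf 8, with 1 count in muscle, the ratio was 138677 with an exact 95% counting interval from 24889 to 5477510, so ratios of single calves are poorly determined on the high side.

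LEP was counted in every adipose library and in no muscle library. Its counts in adipose tissue were 68, 321, 415 and 840 in CON calves and 88, 112, 333 and 107 in 5-HTP calves, against 0 in all 8 muscle libraries. The mean adipose level was 14.5 CPM, at least 121-fold higher than muscle when each muscle library was set to its floor of 3 counts. In single calves, this lower bound ran from 27.6-fold in calf 1 to 421-fold in calf 4, which also had the lowest and the highest adipose level.

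FASN was counted in both tissues. Its CPM in adipose tissue was 1083, 1504, 4269 and 1580.3 in CON calves and 2899, 3553, 6427 and 1256 in 5-HTP calves. In muscle, its CPM was 40.8, 33.1, 24.2 and 31.8 in CON calves and 22.6, 22.9, 25.0 and 17.9 in 5-HTP calves, from 370 to 1043 counts. The ratio of the means was 103, and in single calves it ran from 26.6 (calf 1) to 257 (calf 7). All 8 calves had more FASN in adipose tissue than in muscle, as they had for LEP and FABP4, and the lowest adipose value was above the highest muscle value. The direction between tissues is part of the rule that kept the genes, so these ratios are a description and were not tested.

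**Figure D1:**
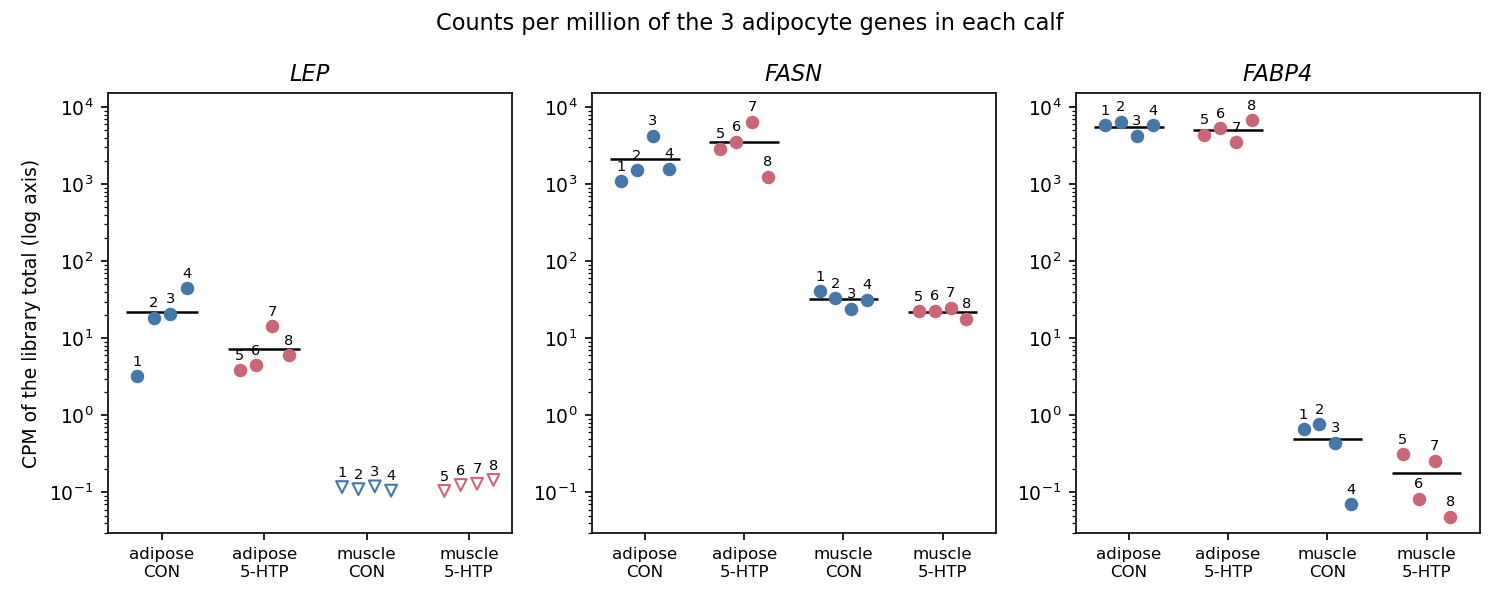
CPM over the library total of LEP, FASN and FABP4 on a log axis, by tissue and treatment, with 1 point and its number per calf and a line at the mean of the 4 calves. Open triangles stand for libraries with 0 counts, drawn at the floor of 3 counts, and LEP has only these in muscle, where FASN lies between 17.9 and 40.8 CPM.

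The scaling moved the size of these ratios but not their direction. With TMM factors (trimmed mean of M values) over all 16 libraries in place of library totals, the ratio was 44.5 for FASN, 6800 for FABP4 (from 15918) and at least 52.8 for LEP. Over the 21849 features that reached 10 counts in 4 or more of all libraries, 83.3% had a higher mean in adipose tissue by library totals and 54.3% by TMM, and the median log2 ratio was 1.33 and 0.14. Against the library-total distribution, the log2 ratio of 13.96 for FABP4 was above that of 98.1% of features, and of the 413 features with a higher one, 407 had no muscle count and 6 had some. The log2 ratio of 6.69 for FASN was above that of 96.5% of features. CFD had a log2 ratio of 3.38, above that of 88.0% of features, with means of 33.7 CPM in adipose tissue and 3.23 CPM in muscle. By the same library totals, C1QB and SIGLEC1, genes of macrophages, had log2 ratios of 3.30 and 3.66, and CSF1 and FUT7 had 2.37 and 2.66. CFD was thus closer to these than to FASN or FABP4. Which cells made CFD in either tissue was not measured.

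**Figure D2:**
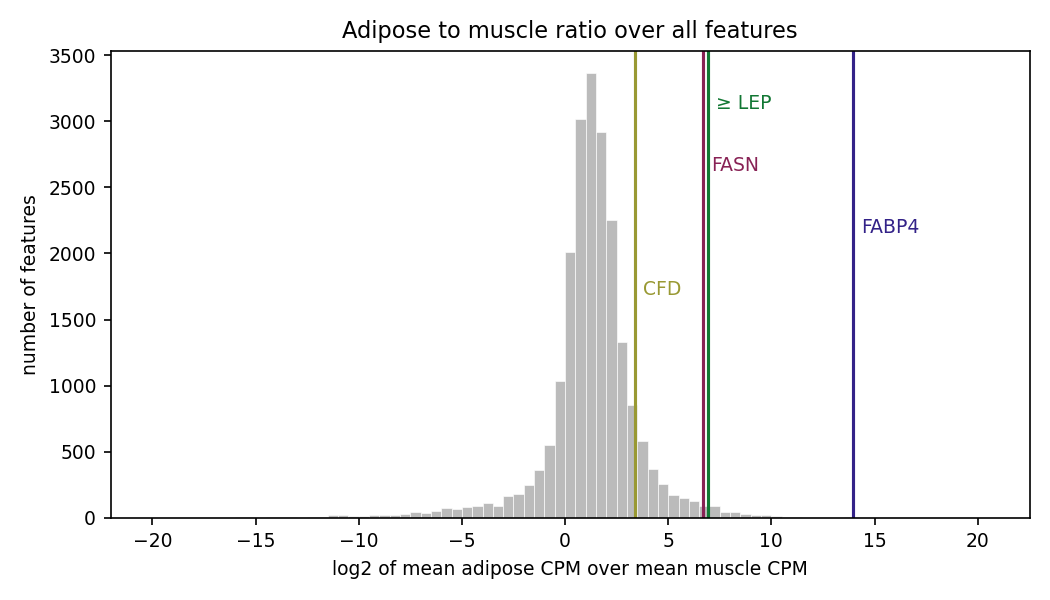
Histogram of log2 of mean adipose CPM over mean muscle CPM in bins of 0.5. Of 21849 features, the 407 with no muscle count and the 241 with no adipose count are not drawn. Vertical lines mark CFD (3.38), FASN (6.69), LEP (a lower bound of 6.92) and FABP4 (13.96), all on the adipose side of the bulk of features around the median of 1.33.

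The ratio of FASN to FABP4 counts differed between the tissues. In adipose libraries it ran from 0.186 (calf 1) to 1.85 (calf 7), with 0.569 for the summed counts. In muscle libraries it ran from 42.9 to 451, with 81.1 for the summed counts of 5598 and 69. The mean FABP4 level in muscle was 0.00628% of the adipose mean, while the mean FASN level in muscle was 0.968% of the adipose mean. Which cells of the muscle samples the FASN reads came from was not measured.

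In adipose tissue, the values of LEP were spread the most among calves and those of FABP4 the least. In TMM-normalized CPM over the 8 adipose libraries, LEP ran from 3.02 to 44.3, a 14.7-fold range with a coefficient of variation (CV) of 95.7%. FASN ran from 1010.5 to 6414, a 6.35-fold range with a CV of 65.6%. FABP4 ran from 3473 to 7155, a 2.06-fold range with a CV of 24.6%. These CVs pool both groups and so include the difference between them. Within CON and 5-HTP calves the CV was 76.7% and 67.7% for LEP and 67.1% and 61.0% for FASN. For FABP4 it was 21.9% and 29.9%. The median CV over the 20167 genes tested in adipose tissue was 31.4%, and 97.8% of them had a lower CV than LEP, 88.7% a lower CV than FASN and 35.7% a lower CV than FABP4. In muscle, FASN had a CV of 34.6% against a median of 23.7%, and FABP4, on 1 to 21 counts, had the wider spread of the pair with a CV of 86.3%.

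The treatment comparison asked whether 5-HTP moved these genes within a tissue, and none of the 3 members passed the threshold in either tissue. It used TMM-normalized counts, the likelihood ratio test of edgeR and a false discovery rate (FDR) over all genes tested, with a threshold of 0.20. In adipose tissue 0.109% of the 20167 genes tested were called at this threshold and in muscle 0.201% of 16878. LEP, FASN and FABP4 were tested in adipose tissue. In muscle only FASN had enough counts, since LEP had none and FABP4 reached 10 counts in 3 libraries.

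LEP had the largest difference of the 3 members in adipose tissue. Its TMM-normalized CPM was 3.02, 20.6, 20.5 and 44.3 in CON calves 1 to 4 and 3.69, 4.58, 14.4 and 6.19 in 5-HTP calves 5 to 8. The groups overlapped through CON calf 1, the lowest of all 8 calves, and 12 of the 16 pairs of a 5-HTP calf with a CON calf had the lower value in the 5-HTP calf. CON calves averaged 22.1 ± 17.0 CPM, 5-HTP calves averaged 7.21 ± 4.88 CPM (SD, n = 4), and the logFC was -1.62 (SE 0.63, FDR = 0.983, likelihood ratio test of edgeR). The unadjusted P value was 0.0129 in that fit, and exact permutation of the group labels over the 8 calves, two-sided, gave p = 0.257.

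The LEP result turned on single calves. Without CON calf 1 the logFC was -1.98 and LEP was called (FDR = 0.0644, edgeR). This likelihood ratio test made more false calls on simulated data than its threshold allows. Without CON calf 4, the highest, the logFC was -1.03 (FDR = 0.998, edgeR), and without 5-HTP calf 7, the highest of its group, it was -2.20 (FDR = 0.685, edgeR). The size of logFC for LEP was above that of 99.2% of genes tested in adipose tissue, where the median size was 0.23.

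FASN, the enzyme of palmitate synthesis, stood at 1010.5, 1670.1, 4192 and 1576 CPM in the CON group and at 2782, 3666, 6414 and 1283 CPM in the 5-HTP group. The groups overlapped at both ends, with CON calf 3 above 5-HTP calves 5, 6 and 8, and 5-HTP calf 8 below CON calves 2, 3 and 4. The means were 2112 ± 1417 and 3536 ± 2156 CPM (SD, n = 4), and the logFC was 0.74 with a 95% interval from -0.24 to 1.73 (FDR = 0.999, edgeR; two-sided exact permutation test, p = 0.314). Without CON calf 3 the logFC was 1.32 (FDR = 0.557, edgeR), and without 5-HTP calf 7 it was 0.29. The interval holds both no change and a rise of 3 times, so a difference of FASN in adipose tissue was not detectable with these calves.

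In muscle, the FASN values were 48.8, 31.2, 23.6 and 30.4 CPM for the CON group and 20.9, 22.8, 26.0 and 18.1 CPM for the 5-HTP group. A single pair overlapped, CON calf 3 lying below 5-HTP calf 7, and 15 of 16 pairs had the lower value in the 5-HTP calf. The means were 33.5 ± 10.7 and 21.9 ± 3.30 CPM (SD, n = 4), and the logFC was -0.61 ± 0.24 (SE; FDR = 0.663, edgeR; two-sided exact permutation test, p = 0.0571). CON calf 1 had the highest value and also the lowest TMM factor of the muscle libraries (0.838, the others between 0.966 and 1.08), and without it the logFC was -0.38 (FDR = 0.894, edgeR). By library totals this calf still had the highest FASN value in muscle, at 40.8 CPM. Of the genes linked to macrophages and leukocytes, C1QB and CSF1 were also highest in the muscle of CON calf 1, at 17.1 and 18.4 CPM, while SIGLEC1 was highest in CON calf 2, at 2.36 CPM. Of the muscle markers, IGFN1 was highest in CON calf 1 too, at 4333 CPM, while TTN was highest in CON calf 2, at 59.4 CPM. FUT7 had between 0 and 6 counts in muscle. C1QB, SIGLEC1, CSF1, IGFN1 and TTN were listed by the study on this same muscle contrast, so their group difference was selected. The part of macrophages and leukocytes in the FASN values was not tested.

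FABP4, the fatty acid carrier, stood at 5434, 7155, 4159 and 5784 CPM in the CON group and at 4192, 5529.7, 3473 and 6859 CPM in the 5-HTP group. The groups overlapped widely, with 10 of 16 pairs lower in the 5-HTP calf. The means were 5633 ± 1232 and 5013 ± 1497 CPM (SD, n = 4), and the logFC was -0.17, its 95% interval running from -0.71 to 0.38 (FDR = 0.999, edgeR; two-sided exact permutation test, p = 0.486). This unadjusted interval is the narrowest of the 3 members in adipose tissue and lies within a change of 2 times in either direction. It takes the dispersion of the fit as known, so it may be too narrow. In muscle, where counts were between 1 and 21, FABP4 was tested only without the filter on low counts, and the logFC was -1.48 ± 0.81 (SE; FDR = 0.802, edgeR). In muscle, FABP4 was lower in the 5-HTP calf in 13 of the 16 pairs (two-sided exact permutation test, p = 0.2). The FABP4 pairs rest on counts between 1 and 21. FASN was lower in 15 pairs and CFD in all 16. How many of all genes tested reach 13 or 15 pairs was not counted. The study listed CFD on this same muscle contrast, so its 16 pairs were selected, an arrangement seen in 1.37% of genes tested in muscle. C1QB, SIGLEC1, CSF1, IGFN1 and TTN, listed on that contrast too, also lay lower in 5-HTP calves without overlap. The arrangement was thus not particular to genes linked to adipocytes. The part of adipocyte RNA in the FASN values of muscle was not tested.

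The effect of 5-HTP was also compared between the tissues, over all 16 libraries, with a tissue by treatment term. Of the 21849 genes in that fit, 0.0870% were called, and neither FASN nor FABP4 was among them. For FASN, with a positive logFC in adipose tissue and a negative one in muscle, the difference in logFC (muscle less adipose) was -1.37 ± 0.59 (SE; FDR = 0.915, edgeR), and without CON calf 3 it was -2.10 and called (FDR = 0.130, edgeR). For FABP4 the difference was -1.29 ± 0.61 (SE; FDR = 0.964, edgeR). FABP4 passed the filter of this fit through its adipose counts, and its muscle side rests on 1 to 21 counts per library. The FABP4 difference is therefore poorly determined. LEP has no such value, since it was at 0 in every muscle library.

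**Figure D3:**
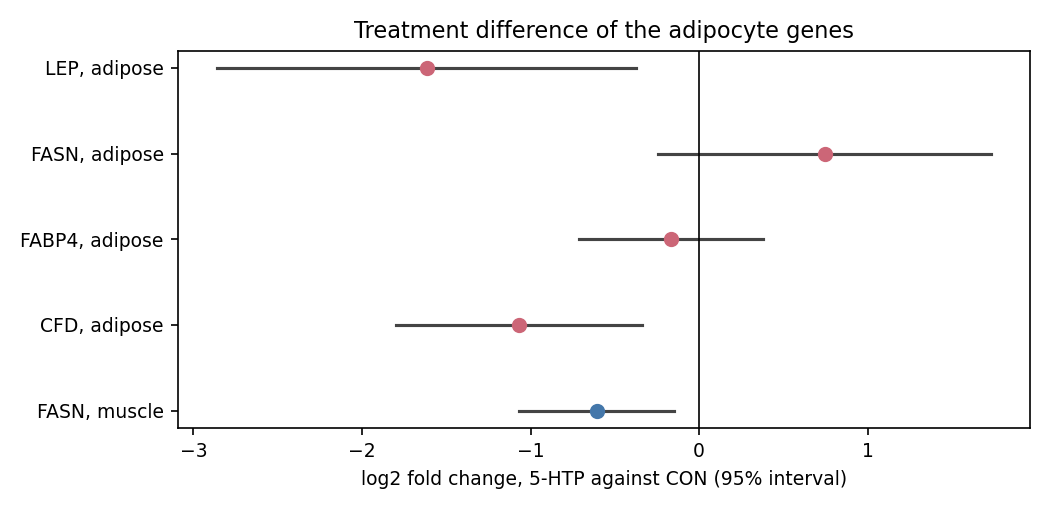
log2 fold change (5-HTP against CON) of LEP, FASN, FABP4 and CFD in adipose tissue and of FASN in muscle, as points with unadjusted 95% intervals from the edgeR fit of each tissue. LEP lies at -1.62 and FASN at 0.74 in adipose tissue, on opposite sides of 0, and none of the 5 differences had an FDR at or under 0.20.

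Other genes linked to adipocytes could be followed only where a symbol was paired with an identifier. Of a list of 34 lipogenic, lipid-binding, transcription factor, hormone and lipolytic genes, 1 was paired by symbol, CFD. That pairing comes from a table of muscle genes that the study chose on these samples. CFD was not chosen on the adipose contrast, but that contrast has the same calves in the same groups. It is thus not free of that choice. The CFD values in adipose tissue were 35.0, 77.7, 32.6 and 39.8 CPM for the CON group and 34.6, 22.8, 19.2 and 11.6 CPM for the 5-HTP group. Only CON calf 3 lay below a 5-HTP calf (calf 5), and the logFC was -1.07 ± 0.37 (SE; unadjusted P = 0.00452, FDR = 0.767, edgeR; two-sided exact permutation test, p = 0.0571). In muscle, all 4 CFD values of 5-HTP calves lay below all 4 of CON calves, an arrangement seen in 1.37% of the 16878 genes tested. This is the contrast on which the study listed the gene.

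An unnamed gene, ENSBTAG00000014220, carries the full name of CD36 in a table of the study, and CD36 is a fatty acid transporter at the cell surface. Whether this feature encodes a working transporter was not tested. Its level was low, with a mean of 0.844 CPM in adipose tissue, and 13.3% of the genes tested there were lower. It was listed for its difference in adipose tissue, so its values are a description. It had 5, 3, 7 and 6 counts in CON calves and 29, 22, 58 and 18 counts in 5-HTP calves, and between 0 and 1 counts in muscle libraries. All 4 values of 5-HTP calves were the higher ones, as they were in 1.37% of the 20167 genes tested. The highest value, in calf 7, came from the library that also had the highest FASN and the lowest FABP4.

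Of the other cell types in adipose tissue, 4 genes linked to macrophages and leukocytes could be followed, 1 of which (FUT7) the study listed on its adipose difference. C1QB (ENSBTAG00000011196), a complement gene of macrophages, had adipose values of 71.8, 58.8, 67.3 and 74.4 CPM for the CON group and 72.1, 54.7, 40.9 and 14.5 CPM for the 5-HTP group. SIGLEC1 (ENSBTAG00000013167), a surface receptor of macrophages, ran from 4.98 to 21.6 CPM with 5-HTP calf 8 lowest. CSF1 (ENSBTAG00000000283), a growth factor that acts on macrophages, ran from 25.7 to 79.9 CPM, and which cells made it was not measured. FUT7 (ENSBTAG00000046516), a fucosyltransferase of leukocytes, ran from 0.174 to 1.91 CPM. In 5-HTP calf 8, C1QB, SIGLEC1, FUT7 and CFD were the lowest of the 8 calves while FABP4 was the second highest, and CSF1, at 53.6 CPM, was not among the extremes. The FUT7 value there was 3 counts, the detection floor, next to 5 in calf 7. The study listed FUT7 in adipose tissue, and C1QB, SIGLEC1 and CFD in muscle, as lower in 5-HTP calves. A low rank of a 5-HTP calf was thus partly selected. The part of these cells in the differences of the members was not tested.

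Across calves, the 3 members did not rise and fall together in adipose tissue. FASN and FABP4 went in opposite directions: calf 7 had the highest FASN (6414 CPM) and the lowest FABP4 (3473 CPM), calf 3 had the second highest FASN and the second lowest FABP4, and calves 2 and 8, with the highest FABP4, had 1670.1 and 1283 CPM of FASN. Over the 8 calves, Pearson's r of log2 CPM was -0.78 (exact permutation p = 0.0272, adjusted p = 0.163 over the 6 relations computed) and Spearman's rho was -0.64 (exact permutation p = 0.0962, adjusted p = 0.289). With the treatment means removed, r was -0.76, and within CON and 5-HTP calves, with 4 calves each, it was -0.64 and -0.85. Without calves 1 and 7, the farthest from the median of FASN, r was -0.79, and with any 1 calf left out it stayed between -0.87 and -0.64. With library totals in place of TMM factors, r was -0.90 (exact permutation p = 0.00263, adjusted p = 0.0158). The relation therefore passed the adjustment under one scaling and not under the other. Of all genes tested in adipose tissue, 0.982% had a lower r with FASN than FABP4 had.

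For LEP, no relation with either gene was detected. Its r with FASN was 0.16 (exact permutation p = 0.687, adjusted p = 0.824; rho 0.21, exact permutation p = 0.619, adjusted p = 0.619) and 0.17 without calves 1 and 4. With the treatment means removed this r was 0.47, within CON and 5-HTP calves it was 0.50 and 0.52, and with 1 calf left out it ran from -0.13 (without calf 1) to 0.42 (without calf 4). Its r with FABP4 was 0.04 (exact permutation p = 0.929, adjusted p = 0.929; rho 0.29, exact permutation p = 0.501, adjusted p = 0.619), turning to -0.0488 without the same calves. Calf 4, with the highest LEP, had 1576 CPM of FASN, while calf 3, with the second highest FASN, had 20.5 CPM of LEP. Calf 1 was lowest in both LEP and FASN, and its FABP4 of 5434 CPM was near the middle.

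**Figure D4:**
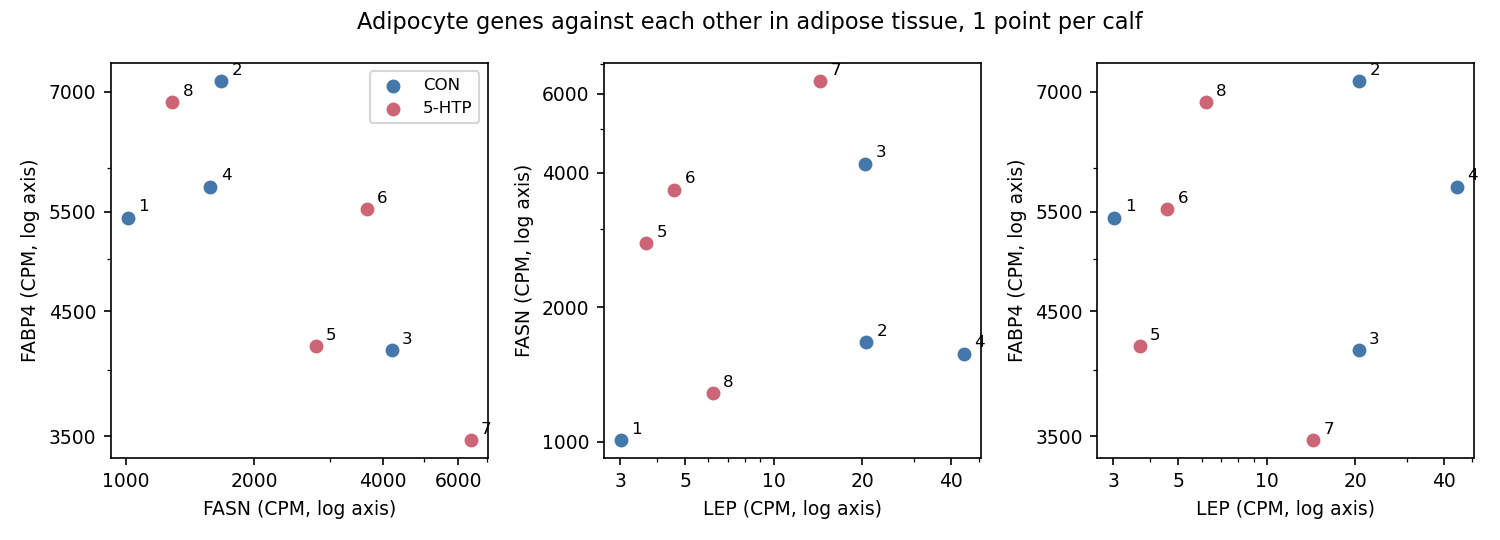
TMM-normalized CPM of FASN, LEP and FABP4 plotted against each other in adipose tissue on log axes, 1 numbered point per calf, blue for CON and red for 5-HTP. FABP4 falls from calves 2 and 8 to calf 7 as FASN rises (r = -0.78), and the panels with LEP show no such slope (r = 0.16 and 0.04).

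No relation between the tissues was detected across calves. FASN in adipose tissue against FASN in muscle gave r = -0.43 (exact permutation p = 0.300, adjusted p = 0.601; rho -0.24, exact permutation p = 0.582, adjusted p = 0.619), and -0.13 without calves 1 and 7. Calf 1 had the lowest adipose and the highest muscle value, and without it r was near 0, at -0.0028, while without calf 8 it was -0.77. Within the groups of 4 calves the sign differed, with r = -0.91 in CON calves and 0.996 in 5-HTP calves, a difference that was not tested. FABP4 between the tissues gave r = -0.23 (exact permutation p = 0.565, adjusted p = 0.824; rho -0.21, exact permutation p = 0.619, adjusted p = 0.619), and -0.11 without calves 3 and 7. Within CON calves this r was 0.06 and within 5-HTP calves -0.95, on muscle counts of 9, 2, 6 and 1 in the latter. Within muscle, FASN and FABP4 had r = 0.60 (exact permutation p = 0.110, adjusted p = 0.329; rho 0.64, exact permutation p = 0.0962, adjusted p = 0.289), and 0.05 without calves 1 and 8, so that relation rests on those calves and on FABP4 counts of 21 and below.

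Genes with a pattern close to a member over the 8 adipose libraries were counted as a description. Pearson's r of log2 CPM was over 0.9 for 11 of the 20167 genes tested with LEP, for 22 with FASN and for 39 with FABP4, and under -0.9 for 14, 20 and 51. The gene itself is left out of these counts. The shares over 0.9 were 0.0545%, 0.109% and 0.193%. How many genes reach such an r with any other gene was not counted, so these numbers say nothing particular about the members. By the mean r with all 3 members, the leading feature was ENSBTAG00000001385 (0.44), followed by ENSBTAG00000021161 (0.43). Both were picked as the highest of the genes tested, so these values were selected. In both, most of the mean r came from LEP (0.92 and 0.90) rather than FASN (0.09 and 0.34) or FABP4 (0.31 and 0.05).

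The 3 members together made up 0.691% to 0.992% of the counts in adipose tissue, with a median of 0.797%, and 0.00180% to 0.00415% of those in muscle. The highest adipose share was in 5-HTP calf 7 and the lowest in CON calf 1.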

How the data were processed

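RNA of 16 samples was sequenced after poly-A capture. The authors trimmed reads with Trim Galore 0.4.4 (quality by FastQC 0.11.7), aligned them to ARS-UCD1.2 with HISAT2, merged transcripts with Cufflinks 2.2.1 and counted reads with HTSeq, per the labels and the methods, and deposited 1 table of raw counts per library, with 44265 features and no normalization. Each member was 1 feature. Symbols of other genes came from the study's supplementary tables. SCD was not analysed here.

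CPM was taken over the library total for tissue ratios. For treatment, features that reached 10 counts in 4 or more libraries were fitted within each tissue with edgeR 4.0.16 (R 4.3.3; TMM, likelihood ratio test, Benjamini-Hochberg FDR, threshold 0.2), as the methods of the study name this test. When the procedure was tested on simulated data, false calls were more frequent than this threshold allows, so the background counts of called genes may be too high. The calls of LEP without CON calf 1 and of the FASN tissue by treatment difference without CON calf 3 used the same likelihood ratio test. They may be false too. Single genes and correlations were tested by exact permutation with scipy 1.17.1 on log2 of TMM-normalized CPM plus 0.001. Alternatives were the quasi-likelihood test, DESeq2 1.42.0, other scaling and filters, the calf as a block, 1 row per merged locus, and leaving out each calf.

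The members, the lists of other genes and the tests were chosen with earlier results of these data known. Genes named were the members, genes of the pathway and marker lists that a source paired with an identifier, and the 2 features with the highest mean correlation with the members. Total counts were between 17289845 and 28649548 per library, and values that rest on few counts (FABP4 in muscle; ENSBTAG00000014220, FUT7, TTN and IGFN1 in adipose tissue) carry sizeable counting error.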

Additional observations from a re-analysis of the deposited data

How the results depend on the processing

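With 4 calves per group, single calves decided calls. Leaving out 1 calf moved the logFC of LEP in adipose tissue between -2.20 and -1.03, with a call only without CON calf 1 (-1.98), and the tissue by treatment difference of FASN between -2.10 and -0.87, with a call only without CON calf 3. The number of genes called in adipose tissue was 22, between 4 (without CON calf 4) and 56 (without CON calf 3) with 1 calf left out, and 1 by the quasi-likelihood test of edgeR. In muscle it was 34, between 13 (without 5-HTP calf 5 or 8) and 188 (without CON calf 4), and 1 by the quasi-likelihood test. In the interaction fit it was 19, between 12 (without 5-HTP calf 6 or 8) and 44 (without CON calf 1; 43 without CON calf 3), and 0 by the quasi-likelihood test, where 819 genes had an unadjusted p under 0.05. The cause of these shifts was not tested. The correlation of FASN with FABP4 in adipose tissue was -0.90 by library totals. That of LEP with FABP4 turned to -0.0760 by library totals, -0.121 with group means removed and -0.0488 without the 2 calves farthest from the median. Of the other values, 74 with 1 calf left out and 60 under other settings were counted as unchanged. For logFC this meant the same direction and side of the threshold, and for tissue ratios a shift below the SD among calves. For correlations the sign alone was mostly used, and for numbers of genes called a similar size. Sizeable shifts thus count as unchanged, such as the FABP4 ratio of 6800 by TMM (15918 by library totals). The r of FASN with FABP4 in muscle is another, at 0.05 without the 2 farthest calves (from 0.60).

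The tissue by treatment term was also fitted with the calf number as a replicate block. The difference was then -1.32 for FASN (FDR = 0.943, edgeR) and -1.13 for FABP4 (FDR = 1, edgeR). The FABP4 value again rests on few muscle counts. In this fit 20 genes were called against 19, and no call of a member changed. Deviations from group means of a calf's 2 libraries were correlated over 15696 features. The correlation was -0.226 in calf 1 and -0.0588 in calf 2, both CON, and between 0.102 and 0.269 in the other calves. The pairing by number was thus not borne out in calves 1 and 2. Tissue ratios of single calves and relations between tissues rest on that pairing.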
